A study of Mus musculus with 3 samples.

Results

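The genes of fatty acid uptake and carriage were read in 3 cell preparations from mouse epididymal fat. The 10 genes were taken by name from the probe annotation of the arrays, out of 37325 genes read there, and all 10 were found, at 19 probes. They are Lpl, Gpihbp1 and Angptl4, which act on lipoprotein triglyceride in the capillary, Cd36, Slc27a1 and Slc27a4 at the cell membrane, the intracellular carriers Fabp3, Fabp4 and Fabp5, and the glycerol channel Aqp7. The fat came from 20-week-old male C57/BL mice and was digested with collagenase. A first spin at 9 g for 1 s left stromal vascular cells (SVC) in the lower phase, and a second spin of the floating cells at 226 g for 3 min gave mature adipocytes (MA) on top and small proliferative adipocytes (SPA) as the sediment. SVC and SPA were then grown in DMEM to 90% confluency, while no culture is described for MA, so the kind of cell cannot be told apart from culture where MA is compared with the other groups. The titles of SVC and SPA carry the same date and that of MA another. No genotype or treatment separates the groups, and how many mice each sample came from is not given in the sources used here.

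Adipocytes take up most of their fatty acid from triglyceride that circulates in lipoproteins. Lipoprotein lipase, made largely by the fat cells themselves, is carried by Gpihbp1 to the inner face of the capillary, splits triglyceride there, and is held back by Angptl4. The fatty acids enter the cell through Cd36 and the fatty acid transport proteins of the Slc27a family, are bound in the cytosol by small lipid-binding proteins of the Fabp family, and are stored again as triglyceride, while glycerol set free by lipolysis leaves through Aqp7.

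Each group was measured on 1 Agilent 1-colour array, and the 3 arrays lay on 1 slide and were read in 1 scan. There is therefore no replicate, no test and no p-value, and every difference below is one between 2 samples. The error given is the one that the scanner software assigned within an array. It came to 0.204 to 0.24 on the log2 scale for a ratio of the 10 genes at the probe read. It leaves out animals, cultures and labelling. For a single value at bright probes such as that of Lpl it was the same 0.144 on all 3 arrays, so it is not a spread measured here. Probes spotted repeatedly had a smaller SD, 0.04 in SVC, 0.04 in SPA and 0.05 in MA. Signals are processed intensities after background subtraction, and ratios are of signals scaled to the 75th percentile of each array, which was 430 in SVC, 439 in SPA and 366 in MA. Where a gene had several probes, the one with the highest mean of the scaled log2 signals over the arrays was taken. A value is called well above background where the scanner software marked it so, and this held for 56 of the 57 values of the 19 probes. The signal of a probe depends on the probe itself, so levels are compared between arrays and never between genes.

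Genes typical of other cells differed between the arrays. Of 10 adipocyte genes outside the 10 described here, 8 were well above background in SVC, where Adipoq and Plin1 were not, and all were in SPA and in MA. Their summed scaled signal was 5.17 in SVC, 55.4 in SPA and 2847 in MA. That of 10 endothelial genes, all well above background on each array, was 7.69, 11.8 and 137 in the same order, and MA exceeded SPA at least 5-fold for 9 of these genes. The sum of 10 macrophage genes, all well above background too, was 565, 619 and 204, of which Lyz2 alone made up 428, 447 and 123. Within that list Cd68 was 8.58-fold lower in MA than in SPA and C1qa 11.3-fold higher, and the median log2 ratio was -0.40. The sum of 10 fibroblast and progenitor genes was 552, 261 and 580. Of these, Pdgfra was 4.14-fold lower in MA than in SPA and Lum 27.2-fold higher, and the median log2 ratio was 1.46. The sum of 9 mesothelial genes was 72.7, 18.0 and 26.8, and that of 10 lymphocyte genes, of which 5, 7 and 8 were well above background, 9.88, 10.6 and 12.8. Of 7 red cell genes 3 were well above background in SVC and in SPA and 6 in MA, with sums of 0.395, 0.430 and 679, and Hbb-b1 reached the mark of well above background in MA only. The part of these cells in the values below was not tested. In RNA of whole samples, fewer cells of a type and less RNA per cell cannot be told apart.

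From SVC over SPA to MA most of the genes stood higher at each step. In 8 of the 10 genes the level lay in the order SVC, SPA, MA. That held for 25.4% of the 19971 genes well above background on all 3 arrays. The exceptions were Fabp3, highest in SVC, and Slc27a4. This order counts signs alone, at 1 probe a gene. It includes Fabp5, whose log2 ratio of SPA over SVC, 0.19 ± 0.20, did not exceed its error. It also includes Lpl, of which 3 of the 6 probes were highest in SPA. In SPA against SVC, 1 of the 10, Fabp4, was at least 5-fold higher and 0 were at least 5-fold lower, beside 0.32% and 0.351% of all 22809 genes compared. With a limit of 2-fold, Lpl, Gpihbp1, Angptl4, Cd36 and Fabp4 were higher and 0 were lower, beside 3.89% and 3.24% of all genes. The median log2 ratio of the 10 was 1.00, from -0.45 to 2.85, against 0.07 over all genes.

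In MA against SPA, Gpihbp1, Angptl4, Fabp4 and Aqp7 were at least 5-fold higher and Fabp3 was at least 5-fold lower, which is 4 and 1 of the 10, beside 5.47% and 3.97% of 24102 genes. A limit of 2-fold added Lpl, Cd36 and Slc27a1 to the higher ones for a count of 7 and left 1 lower, beside 15.7% and 18% of all genes. The median log2 ratio was 2.14, from -2.91 to 7.06, against -0.07 over all genes. In MA against SVC, 7 of the 10 were at least 5-fold higher and 1, Fabp3, was lower, beside 5.72% and 3.96% of 23597 genes, and the counts were also 7 and 1 at 2-fold, beside 17.2% and 18%. The 3 comparisons share their arrays and are given side by side. Fabp5 and Slc27a4 passed neither limit in any of them, although Fabp5 passed 2-fold in MA over SVC with quantile normalization, at a log2 ratio of 1.24.

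**Figure D1:**
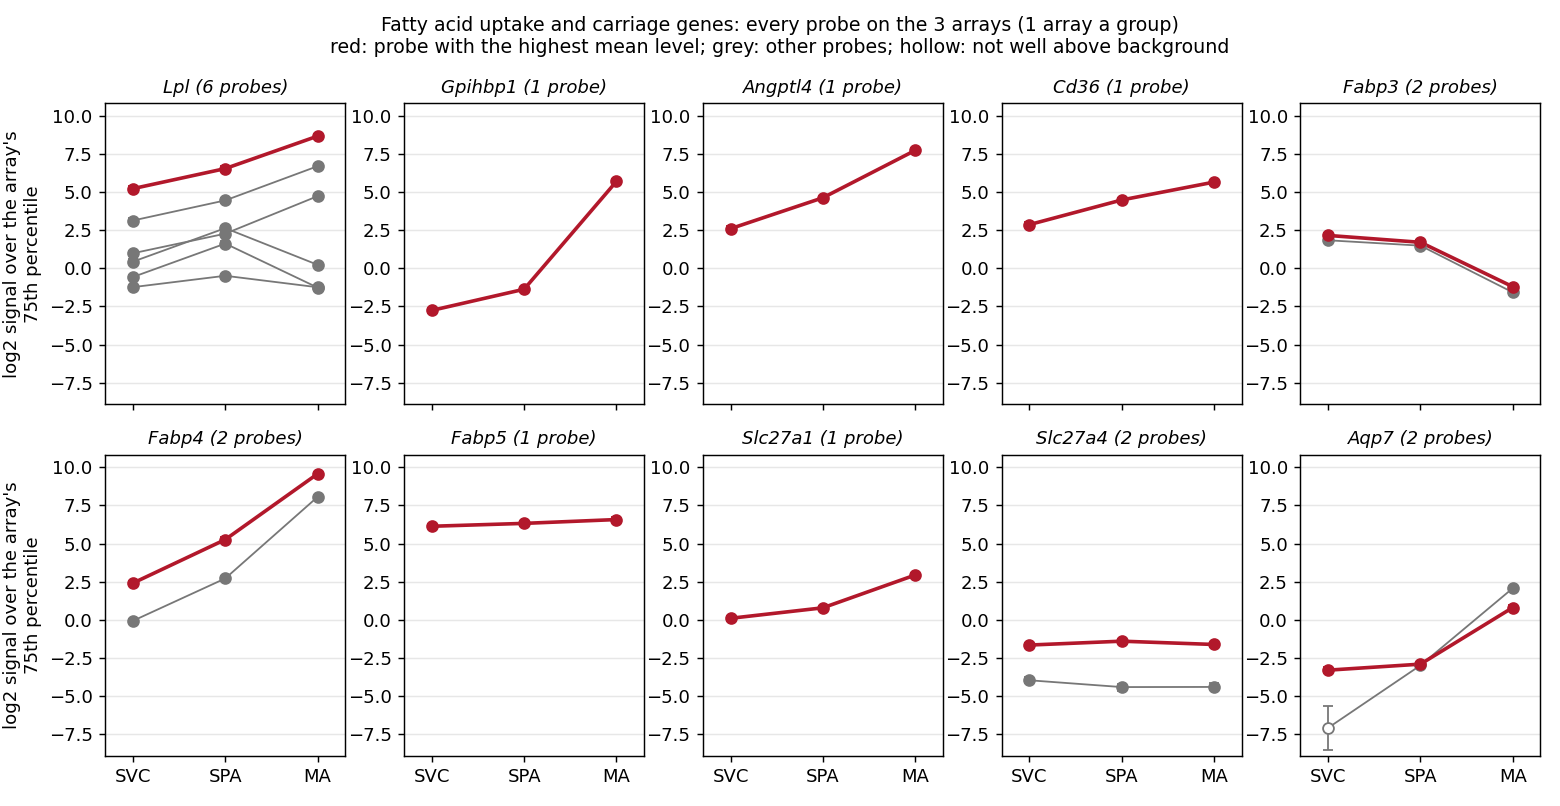
Level of every probe of the 10 genes on the 3 arrays, as log2 of the signal over the 75th percentile of its array; each point is 1 probe on 1 array, bars are the error within the array and mostly smaller than the point. The probe read for each gene (red) goes up from SVC to MA in 8 genes, with Fabp4 from 2.41 to 9.57, goes down in Fabp3 from 2.15 to -1.21, and lies between -1.65 and -1.40 in Slc27a4.

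**Figure D2:**
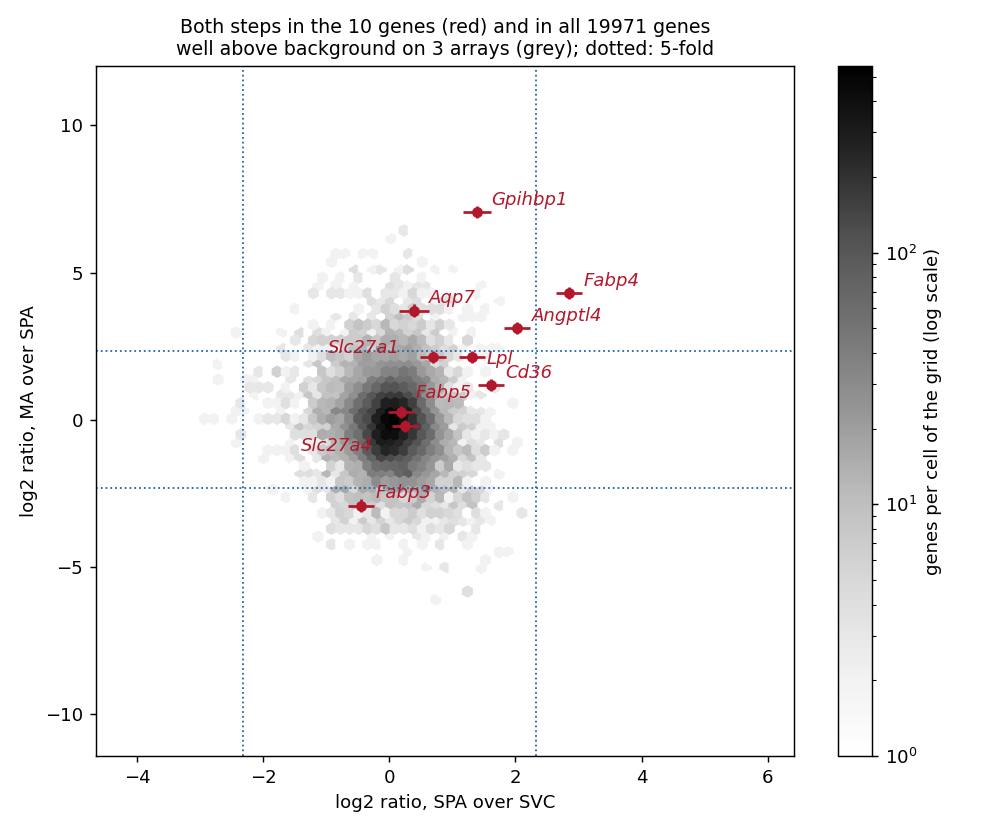
Log2 ratio of SPA over SVC (horizontal) against log2 ratio of MA over SPA (vertical), for the 10 genes (red, bars are the error within the arrays) and, as grey shading by number, for 19971 genes well above background on all arrays; dotted lines mark 5-fold, and the axes share the SPA array, so the points are not independent between axes. Fabp4 lies past 5-fold on both axes, Gpihbp1 at 7.06 is the highest of the 10 on the vertical axis, and Fabp3 is the one of the 10 genes below the lower dotted line.

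Lpl, which encodes lipoprotein lipase, had signals of 15977 in SVC, 40550 in SPA and 147506 in MA at the probe read, near the 3′ end of its mRNA (chr8:71430267-71430326, plus strand, mm9, base 3484 of the RefSeq mRNA). The SPA array was 2.49-fold above SVC (log2 1.32 ± 0.20, error within the arrays), and MA was 4.37-fold above SPA (log2 2.13 ± 0.20) and 10.9-fold above SVC (log2 3.44 ± 0.20).

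The array held 6 probes for Lpl, and they did not go the same way. The sequences below show which stretches were read. A pair of them lies within the coding part of the RefSeq mRNA, at chr8:71425050-71425109 (base 1340) and chr8:71419652-71419711 (base 830), and is given whole. For the other 3, designed on cDNA clones or an Ensembl model and placed at chr8:71405538-71405597, chr8:71408343-71408402 and chr8:71413311-71413370, the first 30 bases are given. All 6 lie on the plus strand, and these 3 come before the RefSeq probes in the direction of transcription. Whether they fall in an exon or an intron of Lpl was not read, because no mm9 annotation was used here.
Lpl RefSeq base 1340: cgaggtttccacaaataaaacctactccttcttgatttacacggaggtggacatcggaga
Lpl RefSeq base 830: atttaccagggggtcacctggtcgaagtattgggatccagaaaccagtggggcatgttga
Lpl other transcript, 5′-most: ctagctgagagcacatgggattttctagag
Lpl other transcript, middle: aggtgaccacacaagagagtgacatttctg
Lpl other transcript, 3′-most: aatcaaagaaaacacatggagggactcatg

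The 3 RefSeq probes gave the same picture. At base 1340 the signal was 3758 in SVC, 9562 in SPA and 37625 in MA, and at base 830 it was 849, 2110 and 9650. Over the 3 probes the ratio of SPA over SVC was 2.44 to 2.49, and MA was 4.37-fold to 5.49-fold above SPA, so that the call at 5-fold depended on which of them was read. MA was 10.9-fold to 13.4-fold above SVC at all of them. The other 3 probes were highest in SPA. From the 5′-most to the 3′-most, their signals in SVC, SPA and MA were 580, 2709 and 427, then 289, 1345 and 152, and last 182, 312 and 154, all well above background. The spot of the 3′-most in SVC had an outlying local background. At these 3 probes SPA was 1.68-fold to 4.58-fold above SVC, while MA was 1.68-fold to 7.38-fold below SPA and between 1.00-fold and 1.62-fold below SVC. With the median over the 6 probes, the log2 ratio of MA over SPA was 0.69.

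**Figure D3:**
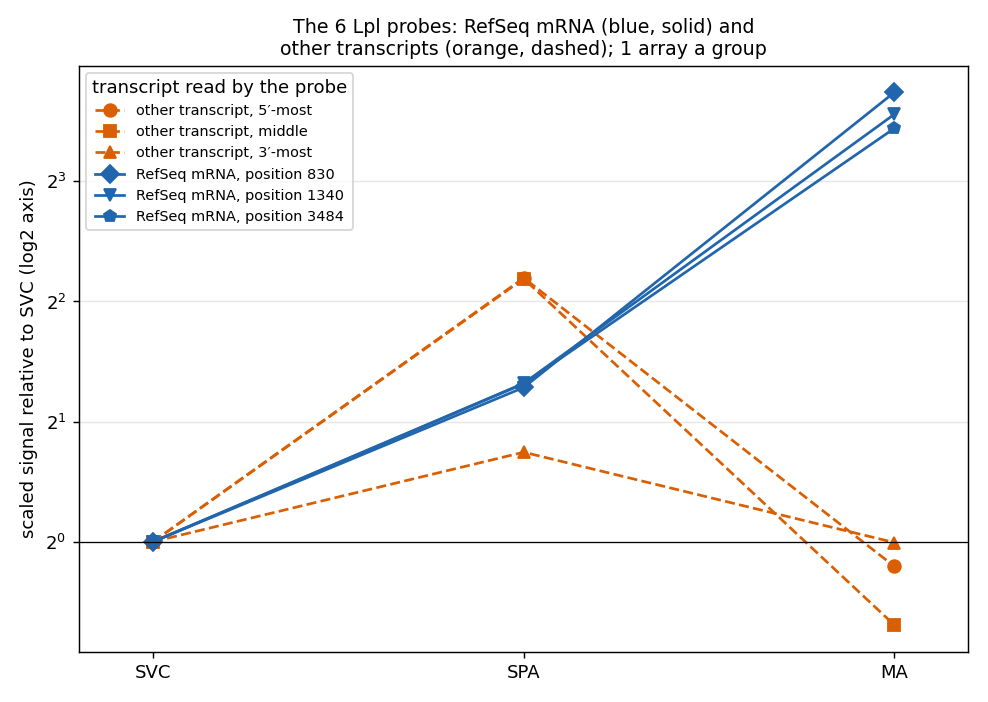
Scaled signal of the 6 Lpl probes on the SVC, SPA and MA arrays relative to SVC, on a log2 axis; 1 point is 1 probe on 1 array. The 3 probes of the RefSeq mRNA (blue, solid) end 10.9-fold to 13.4-fold above SVC in MA, while the 3 probes of other transcripts (orange, dashed) peak in SPA and return in MA to SVC or below.

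Gpihbp1, the glycolipid-anchored protein that holds lipoprotein lipase on capillary endothelial cells, had signals of 63.3 in SVC, 169 in SPA and 18835 in MA at its only probe (chr15:75428484-75428543, plus strand, mm9). It was dim in the cultured cells and bright in MA. The ratio of MA over SPA was the largest of the 10 genes, at 134-fold (log2 7.06 ± 0.21), and that over SVC was 350-fold (log2 8.45 ± 0.22). SPA was 2.61-fold above SVC (log2 1.39 ± 0.22), which became 0.88 on the log2 scale with the normexp background correction, below 2-fold. The endothelial genes stood higher in MA too, with a median log2 ratio of 3.19 over SPA and of 3.62 over SVC.

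Angptl4, a secreted inhibitor of lipoprotein lipase, had signals of 2594, 10769 and 77185 in SVC, SPA and MA (chr17:33911880-33911939, minus strand, mm9). It was lowest in SVC and highest in MA. SPA was 4.07-fold above SVC (log2 2.03 ± 0.20), and MA was 8.60-fold above SPA and 35.0-fold above SVC (log2 5.13 ± 0.20).

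Cd36, the membrane receptor that binds long-chain fatty acids, had signals of 3119 in SVC, 9741 in SPA and 18281 in MA (chr5:17288600-17288659, minus strand, mm9). Of the 5 genes at least 2-fold higher at both steps, it was the one with its larger ratio in the first. SPA was 3.06-fold above SVC (log2 1.61 ± 0.20) and MA 2.25-fold above SPA (log2 1.17 ± 0.20), which together made 6.90-fold (log2 2.79 ± 0.20). With quantile normalization the steps were 1.52 and 1.83 on the log2 scale, so the second was then the larger. Beside this, the macrophage genes, whose cells also carry Cd36, had a median log2 ratio of 0.005 for SPA over SVC and -0.40 for MA over SPA. Those of the endothelial genes were 0.53 and 3.19. The part of either cell type in the Cd36 values was not tested.

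RefSeq promoter windows, from 250 bases before to 50 after a start of transcription in GRCm38.p6, were held for Cd36, Fabp3, Slc27a1, Slc27a4 and Aqp7, 8 windows in all. They were searched on both strands for AGGTCA, the core element of nuclear receptors such as Pparg, for 2 copies of it 1 base apart, for CCAAT and for TATAAA, with each copy in such a pair counted as AGGTCA too. The 250 bases before the start of Cd36 (GRCm38.p6, chr5:17835897-17836146, minus strand) are printed as the window of a gene higher in SPA than in SVC, with AGGTCA, here on the opposite strand, and CCAAT in capitals.
Cd36 upstream: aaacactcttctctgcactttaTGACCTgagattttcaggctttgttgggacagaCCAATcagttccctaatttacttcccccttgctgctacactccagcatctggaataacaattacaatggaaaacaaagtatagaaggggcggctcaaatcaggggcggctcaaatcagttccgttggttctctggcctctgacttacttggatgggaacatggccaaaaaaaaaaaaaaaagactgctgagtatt
AGGTCA begins at -228 and CCAAT at -195 from the start. The pair of Aqp7 windows overlap and held 2 copies and 1 copy of AGGTCA. The 1 copy lies in the shared stretch and is the same site as one of the 2 copies. Of the 3 Slc27a1 windows 1 held CCAAT at -188 and another at -128. The Fabp3 and Slc27a4 windows held none of these. Of 32851 mouse windows of the same length, 16.3% held AGGTCA, 0.0396% held 2 copies 1 base apart, 37.4% held CCAAT and 13.6% held TATAAA. Such matches describe letters and not bound sites.

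Slc27a1, the fatty acid transport protein of muscle and fat that is also called FATP1, had signals of 462, 758 and 2799 in SVC, SPA and MA (chr8:74110256-74110315, plus strand, mm9). MA stood above both cultures. It was 4.43-fold above SPA (log2 2.15 ± 0.20) and 7.14-fold above SVC (log2 2.84 ± 0.20), while SPA over SVC was 1.61-fold (log2 0.69 ± 0.20).

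Slc27a4, or FATP4, was nearly level, with signals of 137, 167 and 119 at the probe read (chr2:29672983-29673042, plus strand, mm9). Its log2 ratios were 0.25 for SPA over SVC, -0.22 for MA over SPA and 0.04 for MA over SVC, each ± 0.21. The first pair was barely larger than the error within the arrays and the last was smaller. The second probe (chr2:29672404-29672464) had signals of 27.6, 20.7 and 17.4 and log2 ratios of -0.45 ± 0.31, 0.01 ± 0.33 and -0.44 ± 0.31. The signs differed between the probes in all 3 comparisons. In MA over SPA and in MA over SVC, however, the ratio of 1 of the probes was smaller than its error.

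Fabp4, the main lipid-binding protein of adipocyte cytosol, was the one gene of the 10 past 5-fold at each step. Its signals were 2283 in SVC, 16823 in SPA and 277281 in MA at the probe read (chr3:10204452-10204511, minus strand, mm9, base 472 of the mRNA). SPA was 7.22-fold above SVC (log2 2.85 ± 0.20), MA was 19.8-fold above SPA (log2 4.31 ± 0.20) and 143-fold above SVC (log2 7.16 ± 0.20). The second probe, in the coding part (chr3:10208442-10208501, base 75), had signals of 411, 2878 and 97258. Both probes are shown because they differ in the second step, the first by its leading 30 bases.
Fabp4 base 472: aagaggcctggatggaaatttgcatcaaac
Fabp4 base 75: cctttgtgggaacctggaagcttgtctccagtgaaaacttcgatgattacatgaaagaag
The ratios of SPA over SVC were close, 7.22-fold and 6.86-fold, whereas MA over SPA was 19.8-fold at base 472 and 40.6-fold at base 75, a difference of 1.04 on the log2 scale. The spots of the probe at base 75 in SPA and in MA had an outlying local background. Macrophages and capillary endothelium carry Fabp4 as well, and the median log2 ratio of MA over SPA was -0.40 for the macrophage list, with members in both directions, and 3.19 for the endothelial list.

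Fabp5, a carrier of the same family found in skin, macrophages and fat, differed little between the arrays as scaled here. Its signals were 30155, 35072 and 34762 in SVC, SPA and MA (chr3:10016185-10016244, plus strand, mm9). The log2 ratios were 0.19 for SPA over SVC, 0.25 for MA over SPA and 0.44 for MA over SVC, each ± 0.20, or 1.14-fold, 1.19-fold and 1.36-fold. With quantile normalization the latter ratios were larger, at 0.96 and 1.24 on the log2 scale, so that MA over SVC passed 2-fold under that scaling. Fabp4 and Fabp5 lie on the same chromosome, and only Fabp4 of this pair passed 5-fold in any comparison.

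Fabp3, the carrier of heart and skeletal muscle, went the other way. Its signals were 1908 in SVC, 1424 in SPA and 158 in MA at the probe read (chr4:129992652-129992711, plus strand, mm9). It was well above background in all 3 samples, highest in SVC and lowest in MA. MA was 7.52-fold below SPA (log2 -2.91 ± 0.21) and 10.3-fold below SVC (log2 -3.36 ± 0.21), while SPA was 1.37-fold below SVC (log2 -0.45 ± 0.20). The second probe (chr4:129992643-129992702) gave signals of 1531, 1224 and 122 and ratios 8.34-fold and 10.6-fold below SPA and SVC. The probes share 51 of their 60 bases, so they are not separate evidence.

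Aqp7, the channel through which glycerol leaves the fat cell, was dim in both cultures and brighter in MA, with signals of 43.8, 58.7 and 640 at the probe read (chr4:40980431-40980490, minus strand, mm9, base 2140 of the mRNA). MA was 13.1-fold above SPA (log2 3.71 ± 0.22) and 17.2-fold above SVC (log2 4.10 ± 0.23), and SPA was 1.31-fold above SVC (log2 0.39 ± 0.24). The second probe (chr4:40981243-40981302, base 1328) had a signal of 3.19 in SVC, which was not well above background, of 55.6 in SPA and of 1540 in MA. There MA was 33.2-fold above SPA and at least 130-fold above SVC, and SPA was at least 3.92-fold above SVC, bounds set against the lowest signal well above background on the SVC array, which was 13.9. The probes thus agreed that MA was highest and differed by over 1 log2 unit in how far it stood above SPA, and the SPA to SVC ratio passed 2-fold at the second probe only.

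A list of 45 other genes of lipoprotein, fatty acid and glycerol handling was read in the same way. The arrays held 44 of them, and 39 were well above background on at least 1 array. In SPA against SVC 1 of the 34 with a ratio was at least 5-fold higher and 2 were lower, beside 0.32% and 0.351% of all genes. In MA against SPA 9 of 39 were higher and 3 lower, beside 5.47% and 3.97%, and in MA against SVC 10 of 38 were higher and 3 lower, beside 5.72% and 3.96%. The median log2 ratios of the list were 0.35, 0.44 and 0.48 in that order, against 0.07, -0.07 and -0.002 over all genes. These counts read 1 probe a gene, and other probes changed some calls. In MA against SPA, another probe of Apoc3 (log2 4.16 or more), Scarb1 (2.42) and Lrp1 (-2.56) passed 5-fold. Another probe of Cav2 (2.26) did not. Calls in MA against SVC also differed between probes for some genes.

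Among the partners of lipoprotein lipase, Apoc1, an apolipoprotein, had signals of 329, 882 and 58254 in SVC, SPA and MA, and Apoe, the ligand of lipoprotein receptors, 7026, 10126 and 155074. Their log2 ratios of MA over SPA were 6.31 and 4.20. Lmf1 and Sel1l, which help lipoprotein lipase to mature, had log2 ratios of -0.11 and -0.58 and passed no limit of 5-fold.

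At the membrane, the caveolar coat genes Cav1 and Cav2 had log2 ratios of MA over SPA of 3.51 and 3.33, with Cav1 at 425, 497 and 4724. Scarb1, a class B scavenger receptor like Cd36, had a log2 ratio of MA over SVC of 2.72. Slc27a6, another fatty acid transport protein, had signals of 231, 465 and 75.9 and a log2 ratio of MA over SPA of -2.35. Got2, the mitochondrial aminotransferase also known as a fatty acid binding protein of the plasma membrane, had one of -2.33. Of the 6 genes of the Slc27a family read, Slc27a1 was 4.43-fold higher in MA than in SPA and Slc27a6 was 5.10-fold lower. Slc27a3 was 1.76-fold higher, Slc27a5 was 1.14-fold lower and Slc27a4 was 1.16-fold lower at the probe read. In MA, Slc27a2 was at least 1.92-fold above SPA, where its signal did not clear background. Mfsd2a, a carrier of lysophospholipids, had log2 ratios against SVC of -2.45 in SPA and -3.18 in MA.

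Among the intracellular carriers, Fabp7, known from brain, had signals of 988, 1750 and 26.4 in SVC, SPA and MA and a log2 ratio of MA over SPA of -5.79. Like Fabp3 it was thus lower in MA than in either culture, although it was highest in SPA and Fabp3 in SVC. Fabp9 and Fabp12 were well above background in MA only, at 102 and 91.5, at least 9.85-fold and 8.79-fold above SPA. Rbp7, a retinol carrier of the same protein family, had signals of 40.3, 466 and 36138, and at log2 3.50 and 6.54 it was the gene of this list that passed 5-fold at both steps, as Fabp4 did among the 10. Crabp1, a carrier of retinoic acid, had a log2 ratio of SPA over SVC of -2.44 and one of MA over SVC of -3.22 or less. Acsl1, which activates fatty acids to acyl-CoA, had signals of 866, 2159 and 35525 and Dbi, the acyl-CoA binding protein, 20211, 26323 and 178112, with log2 ratios of MA over SPA of 4.30 and 3.02.

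**Figure D4:**
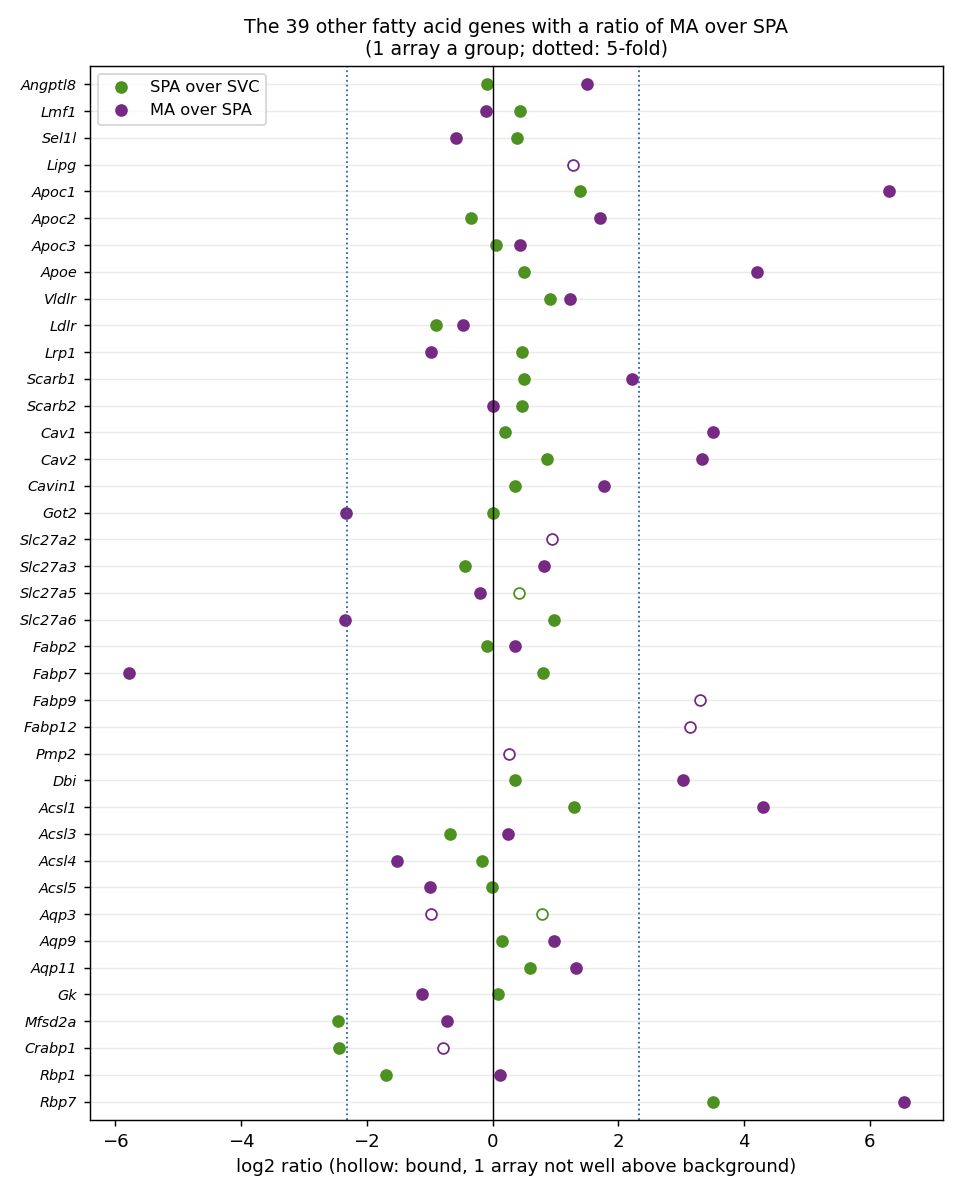
Log2 ratios of SPA over SVC (green) and MA over SPA (purple) for the 39 other genes of fatty acid handling with a ratio of MA over SPA, in the order of the list; each point is a ratio of 2 arrays, hollow points are bounds, and dotted lines mark 5-fold. Rbp7 alone lies right of 5-fold at both steps, Fabp7 lies far left at -5.79, and 9 genes lie right of the line in MA over SPA.

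The genes most like 4 of the members were sought among the 19971 genes well above background on all arrays, by distance in the plane of the log2 ratios of SPA over SVC and MA over SPA. Nearest to Lpl were Gm16124, Glul and Kbtbd11, at distances of 0.04 to 0.17. Nearest to Cd36 were Ace, Ednrb and Tmem178, at 0.13 to 0.16. Around Fabp4 there were 0 genes within 0.25, and the nearest were Sncg, Slc22a3 and Fam13a at 0.37, 0.44 and 0.59. Fabp5 lay among many genes with small ratios, with 1899 others within 0.25, and of named genes Ddhd2 and Rnf10 came closest. With 3 arrays such a likeness rests on 2 ratios.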

How the data were processed

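Total RNA of SVC, SPA and MA, 1 sample each, was labelled with Cy3 from 50 ng and hybridised to 1-colour Agilent arrays. The authors deposited the scanner tables of Agilent Feature Extraction 10.7.3.1, whose processed signal is an intensity after background subtraction and detrending. They also deposited a value table of ratios, which equal the processed signal times 1 constant per array within a relative 1.37e-06. The sources used here name GeneSpring GX for the study's own analysis, with a 5-fold limit.

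Control spots and flagged outlier spots were left out, and log2 of the processed signal minus the array's 75th percentile over 59305 spots was used. Spots well above background made up 58.6% in SVC, 61.4% in SPA and 61.3% in MA, no spot was saturated, and probes spotted repeatedly had an SD of 0.04, 0.04 and 0.05 on the log2 scale. The number of arrays limits the precision. Gene names were those of the arrays, updated for 32994 of 56605 probes whose accession was in the RefSeq table of GRCm38.p6. To pass 5-fold, a gene had to be well above background on the brighter array, and where the dimmer array was not, the fold was a bound against the lowest signal so marked there (13.9 in SVC, 12.5 in SPA, 10.3 in MA). Probes of a gene disagreed where those well above background on both arrays differed by over 1 log2 unit, or where their 5-fold calls differed. Named outside the 10 genes were those of the pathway list past 5-fold in any comparison. The 3 nearest in ratio to Lpl, Cd36, Fabp4 and Fabp5 were named too. Single marker genes, Apoc3, Lrp1, Lmf1, Sel1l and the rest of the Slc27a family were picked after their values were seen. The members and the lists were chosen with earlier results of these data known. The script was tested on simulated data. The alternatives, 10 in number, were the normexp correction (offset 50, limma 3.58.1), quantile normalization, the percentile over probes well above background, the deposited ratios, no filter, a filter on both arrays of a comparison, the median or the dimmest probe of a gene, leaving out spots of outlying local background, and a 2-fold limit. Python 3.11.15 with numpy 2.4.6 and pandas 2.3.3, and R 4.3.3, were used. Promoters came from RefSeq. Proteins were not analysed here, and 1 gene of the pathway list is not reported here.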

Additional observations from a re-analysis of the deposited data

How the results depend on the processing

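Each comparison rests on 1 array a group, so nothing is known of the spread between animals or cultures, and dim genes such as Aqp7 in SVC are limited by signal over background. No paired analysis was possible because each group has 1 sample. The 6 counts at 5-fold stayed within 1.5 times their value under the 9 alternatives that keep this limit. With a 2-fold limit the count higher in SPA than in SVC went from 1 to 5 and that higher in MA than in SPA from 4 to 7. With the median or the dimmest probe the count higher in MA than in SVC was 6 in place of 7, without Lpl. Of the 30 log2 ratios, all moved by less than their error within the arrays under 5 alternatives, none of which could test a single ratio. The percentile over probes well above background and the deposited ratios only rescale whole arrays, with shifts from -0.05 to 0.07 and from -0.02 to -0.002. No filter, probes well above background on both arrays, and leaving out outlying local background gave shifts of 0. They could change neither a ratio nor a count at 5-fold. The probes read were well above background on all arrays and had no outlying local background. Normexp moved 8 by more than the error within the arrays, at most by -0.98, and quantile normalization 8, at most by 0.80, none with a change of sign. The median over probes moved 9, at most by -1.72, for Lpl in MA over SVC from 3.44 to 1.72. It changed the sign of Slc27a4 in SPA over SVC and in MA over SVC. With the dimmest probe 10 moved and 1 was reversed, at most by -3.45, and 5 changed sign. The dimmest probe turned the log2 ratio of Lpl in MA over SVC from 3.44 to -0.00688 and in MA over SPA from 2.13 to -0.75, at a probe annotated to an Ensembl model in place of the RefSeq mRNA, and the cause was not tested. It also changed the sign of all 3 ratios of Slc27a4.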
